A study of Mus musculus with 12 samples.

Results

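Sialyltransferases are Golgi enzymes that add sialic acid to the ends of sugar chains on glycoproteins and glycolipids. The genes described here are 8 sialyltransferase genes, St8sia6, St8sia1, St8sia4, St3gal1, St3gal2, St3gal4, St3gal6 and St6gal1, chosen by gene symbol out of 36222 genes measured by RNA sequencing in mouse regulatory T cells (Treg). Each symbol matched 1 gene identifier, and 7 of the 8 genes passed the filter on low values. The series holds 12 libraries in 4 groups of 3, all from Treg labelled as spleen cells and sorted by YFP from the CD4+ T cells of individual mice. Wild-type (WT) animals were WT YFP Cre+ mice, in which Foxp3 drives a YFP-Cre reporter, and the Ikzf1 conditional knockout (cKO) animals carried a floxed Ikzf1 allele together with the same Cre, so that Ikzf1, which encodes the transcription factor Ikaros, is deleted only in cells that express Foxp3. WT ex vivo and cKO ex vivo Treg were lysed without added stimulation, while WT stimulated and cKO stimulated Treg were kept for 4 h with plate-bound antibodies to CD3 and CD28, each at 1 µg/ml. The animals were young and matched for age. No ex vivo group was cultured without antibodies, so stimulation and culture cannot be told apart, and nothing in the labels ties an ex vivo library to a stimulated library of the same animal. St8sia6 was picked because earlier results of these data showed it low in stimulated cKO Treg, so that its stimulated values are given as a description without a test.

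Sialic acid is the outermost sugar of most vertebrate glycans, and it is attached in a few linkages that different enzymes make. ST6GAL1 and the ST3GAL enzymes cap galactose, and the ST8SIA enzymes add a further sialic acid to one that is already in place. On T cells these caps mask galactose from galectins, form ligands for the selectins and the Siglec lectins, and make up the gangliosides, the sialylated glycolipids of the cell membrane. Capping on T cells is known to differ between naive and activated cells.

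Ex vivo, Ikzf1 stood at 110 ± 5.55 scaled TPM in WT and 37.9 ± 4.57 in cKO Treg, and after stimulation at 68.9 ± 2.24 and 27.8 ± 3.91 respectively (SD, n = 3). TPM is transcript abundance per gene length, and scaled TPM is the TPM divided by a library factor (trimmed mean of M-values, TMM) that brings the libraries to a common level. All 6 Treg and CD4 T cell markers (Foxp3, Il2ra, Ctla4, Ikzf2, Cd4, Cd3e) were at 82.7 TPM or higher in every library, and Foxp3 and Il2ra were called higher in cKO than in WT after stimulation, calls that were lost with no filter (adjusted p = 0.368 and 0.458). With stimulation Cd3e, Cd4, Ctla4 and Foxp3 were called lower in WT, where 19.3% of all genes were called lower. In cKO Cd3e, Cd4, Ctla4 and Ikzf2 were called lower and Il2ra higher, against 26.5% and 17.3% of all genes. On the TPM as deposited the WT calls of Cd3e, Cd4 and Foxp3 were lost (adjusted p of up to 0.405). That of Il2ra in cKO was lost with a filter at 1 TPM (adjusted p = 0.845). Of the 5 control genes of T cell stimulation, Egr2 and Myc rose in both genotypes, Cd69 fell in both, Nr4a1 fell in WT and Il2 rose in cKO, over a range of -1.71 to 2.35 (log2) for the 5 genes. Il2 reached 5 TPM only in cKO stimulated, with a deposited mean of 8.88 TPM against 0.913 to 1.68 in the other groups. It had as few as 4 reads in a library, and since that group let it pass the filter, its rise is a description. With a filter at 1 TPM the calls of Myc were lost in WT (adjusted p = 0.557) and in cKO (adjusted p = 0.850), as was that of Egr2 in cKO (adjusted p = 0.0598). The call of Nr4a1 in WT was made in 7 of the 12 fits that left out 1 library (adjusted p of up to 0.109, without WT ex vivo 3) and was lost on the TPM as deposited (adjusted p = 0.392). Each library held between 8208659 and 20247649 reads in genes. A single gene model, Gm10800, took 17.7 to 39.8% of the deposited TPM in WT and 20.4 to 24.4% in cKO Treg ex vivo, and 32.6 to 44.4% and 42.9 to 55.9% after stimulation, which is why the scaled TPM carry the comparisons. In cKO stimulated, the group where this share was highest on average, reads in genes were also fewest on average (8208659 to 10930376), and the part of either in the results was not tested. WT ex vivo 3 was the only library with Xist above background, at 179 TPM against 0.624 to 1.36 TPM in the other 11. It was also the only library without reads from the Y chromosome above background (Ddx3y at 0.0970 TPM), so it came from a female and the other 11 from males. These are bulk samples, in which fewer cells of a type cannot be told apart from less RNA per cell.

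The members lie on 7 chromosomes of mouse build mm9 (NCBIM37), and all are protein-coding genes. St8sia6 (ENSMUSG00000003418) is at chromosome 2, 13572647 to 13715435, St8sia1 (ENSMUSG00000030283) at chromosome 6, 142770065 to 142912972, and St8sia4 (ENSMUSG00000040710) at chromosome 1, 97484261 to 97564171, all on the minus strand. St6gal1 (ENSMUSG00000022885) is at chromosome 16, 23224813 to 23360421, on the plus strand. No member shared exon sequence with another gene on its own strand. St8sia1, St3gal4, St3gal6 and St6gal1 overlap exons of a gene on the opposite strand, and the authors counted by strand. For 6 of the 8 members a table of RefSeq promoters (GRCm38.p6) gave the 250 bases before a start, each of which matched NCBIM37 at 1 place, and these bases were searched for GGGAA and AGGAA, which hold the GGAA core found in sequences that Ikaros binds. Both motifs were searched on both strands, where they read TTCCC and TTCCT, and they share the letters GGAA. The windows of St8sia1 and St6gal1, the tested members that were lower in stimulated cKO Treg, are printed with that of St8sia4, a gene of the St8sia family that was not called there, 5′ to 3′ on the strand of the gene and with the motifs in capitals.
St8sia1 (chr6:142912973-142913222, minus strand): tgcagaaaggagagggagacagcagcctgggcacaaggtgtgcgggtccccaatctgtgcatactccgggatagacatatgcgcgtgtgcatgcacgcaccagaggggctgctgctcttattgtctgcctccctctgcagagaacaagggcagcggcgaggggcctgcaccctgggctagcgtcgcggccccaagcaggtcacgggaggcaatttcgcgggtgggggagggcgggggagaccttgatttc
St6gal1, first of its 3 starts (chr16:23224563-23224812, plus strand): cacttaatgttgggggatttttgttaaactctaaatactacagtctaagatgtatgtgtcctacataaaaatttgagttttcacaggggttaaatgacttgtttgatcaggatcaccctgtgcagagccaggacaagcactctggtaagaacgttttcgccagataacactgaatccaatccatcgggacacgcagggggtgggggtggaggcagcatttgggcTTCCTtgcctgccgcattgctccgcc
St8sia4 (chr1:97564172-97564421, minus strand): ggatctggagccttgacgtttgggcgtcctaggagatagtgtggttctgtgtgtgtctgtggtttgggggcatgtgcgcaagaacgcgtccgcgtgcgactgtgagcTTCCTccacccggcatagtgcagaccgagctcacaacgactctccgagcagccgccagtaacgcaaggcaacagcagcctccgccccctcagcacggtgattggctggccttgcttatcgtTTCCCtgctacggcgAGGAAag
The St8sia1 window held neither motif, the printed St6gal1 window held AGGAA 1 time and no GGGAA, and the St8sia4 window held GGGAA 1 time and AGGAA 2 times. Of the other 2 St6gal1 windows, chr16:23225844-23226093 held GGGAA 1 time and chr16:23290293-23290542 held it 2 times. The St8sia6 window (chr2:13715148-13715397) held neither motif either and is not printed because it lies inside the mm9 gene model. Among 32851 promoter windows of this length, 56.2% held GGGAA, 60.3% held AGGAA and 82.3% held at least 1 of them; a window without a match says only that these letters are not in it. The gene-level TPM do not tell which of the 3 starts of St6gal1 was used.

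St6gal1 had the highest mean of the 8 members in each of the 4 groups, and St3gal6 the lowest. In WT ex vivo Treg the order by scaled TPM was St6gal1 (59.9 ± 3.84), St3gal1 (39.9 ± 2.32), St8sia4 (29.98 ± 2.86), St8sia6 (29.95 ± 3.38), St3gal4 (22.0 ± 3.70), St8sia1 (16.4 ± 2.11), St3gal2 (15.1 ± 1.54) and St3gal6 (2.69 ± 0.831) (SD, n = 3). The libraries of neighbours in this order overlapped for St8sia4 and St8sia6, for St3gal4 and St8sia1, and for St8sia1 and St3gal2. St8sia6 held 13.9% of the summed level of the 8 members in WT Treg ex vivo and 14.7% after their stimulation, and 9.15% and 5.94% in cKO Treg. It took place 4 of 8 in both ex vivo groups, place 2 in stimulated WT and place 7 in stimulated cKO Treg, where its libraries did not overlap those of St8sia1 above it or St3gal6 under it. In stimulated WT Treg the libraries of St8sia6 overlapped those of St8sia4, St3gal1 and St3gal4 under it. In cKO Treg ex vivo they overlapped those of St3gal4, St8sia1 and St3gal2 under it. In cKO stimulated Treg the libraries of neighbours overlapped among the first 5 members, St6gal1, St8sia4, St3gal1, St3gal2 and St3gal4, and those of St3gal4 did not overlap those of St8sia1, the next in order. The plot of levels by library shows these values for all members.

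**Figure D1:**
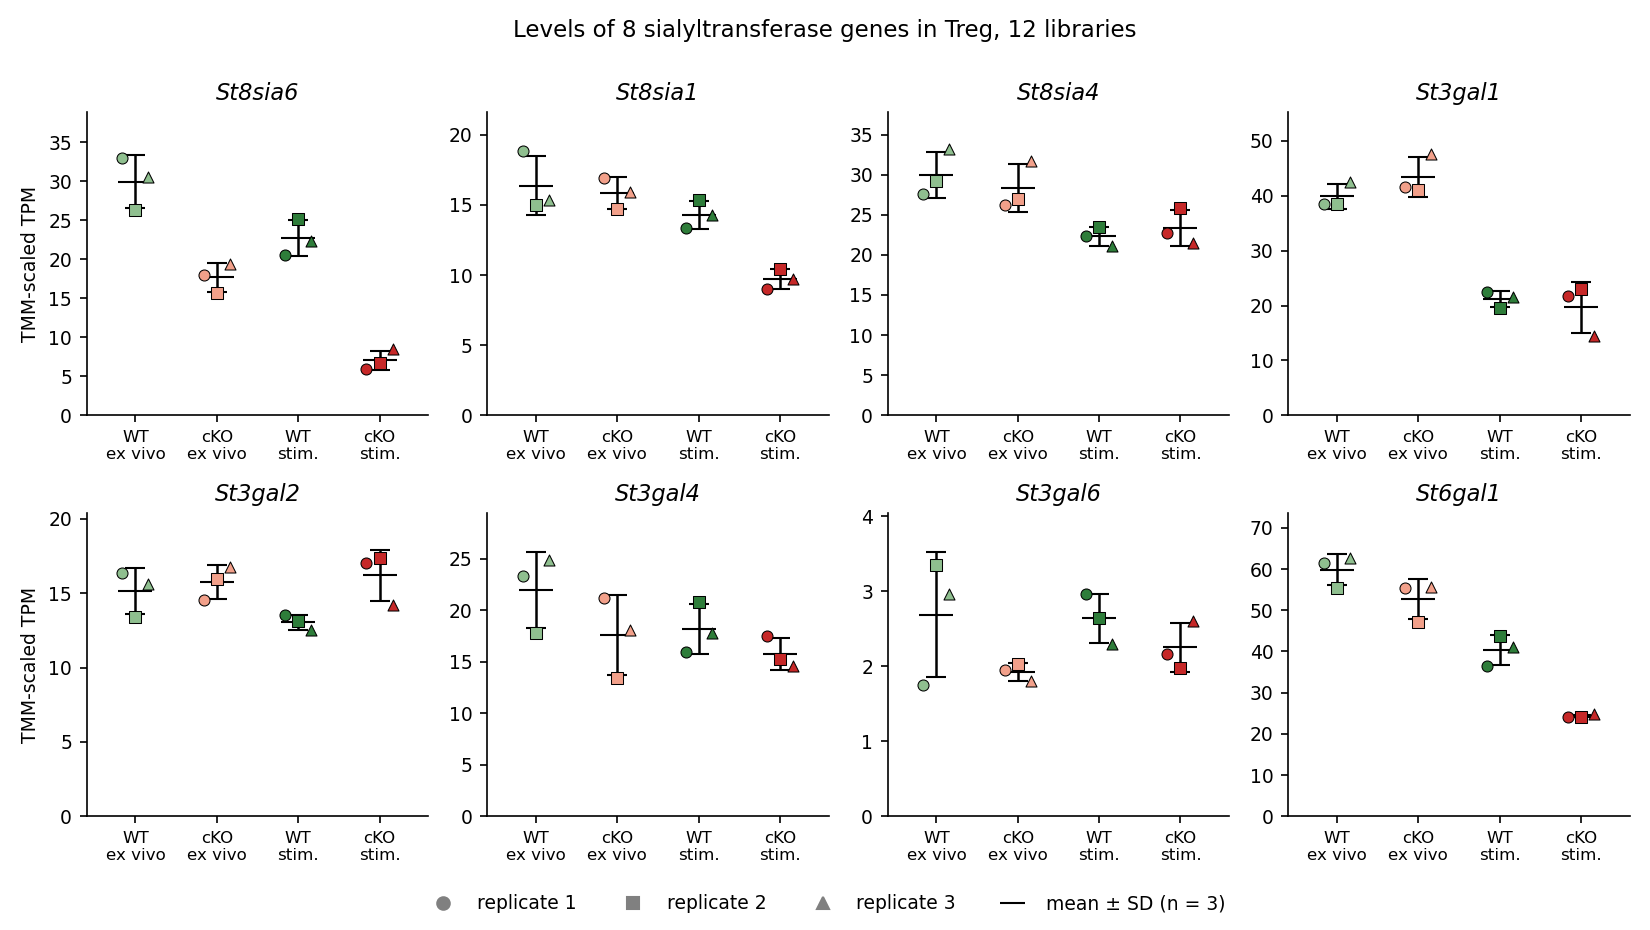
Levels of the 8 members in scaled TPM (vertical axis, from 0) in the 12 libraries, by group. Points are libraries, with a symbol for each replicate number, and bars are the mean ± SD of 3. St8sia6 stands at 5.998 to 8.46 scaled TPM in cKO stimulated, against 20.6 to 25.2 in WT stimulated, while St8sia4 overlaps between genotypes in both conditions.

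St8sia6 encodes an enzyme that adds a sialic acid to a sialic acid, mainly on O-linked glycans, and its product is a ligand of mouse Siglec-E. Ex vivo its scaled TPM were 33.0, 26.3 and 30.5 in the WT libraries and 17.96, 15.7 and 19.4 in the cKO libraries. The highest cKO library was under the lowest WT library, and the cKO mean was 59.1% of WT. Among all fitted genes, 9.95% were lower in cKO without overlap and 11.6% higher. In limma with Benjamini-Hochberg adjustment over 13318 genes St8sia6 fell by 0.73 (log2, SE 0.13, 95% interval -1.02 to -0.43, adjusted p = 0.0103). All log2 changes were taken after adding 1 to the scaled TPM, which makes those of genes at low level too small. It was the only one of 7 tested members called in this comparison, in which 5.29% of all tested genes were called, 3.62% higher and 1.67% lower. All 12 fits that each left out 1 library called it, including the fit without the female library (log2 -0.71, adjusted p = 0.0426). The call did not hold on the TPM as deposited, where the groups overlapped (36.3, 21.3 and 28.7 in WT, 18.9, 18.5 and 21.5 in cKO, log2 -0.50, adjusted p = 0.216), nor when genes under 5 TPM entered the fit (adjusted p = 0.332 with a filter at 1 TPM and 0.342 with no filter).

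After stimulation the scaled TPM of St8sia6 were 20.6, 25.2 and 22.4 in WT and 5.998, 6.65 and 8.46 in cKO. In cKO the mean was 31.0% of that in WT, a log2 difference of -1.57 (SE 0.13), place 23 from the lowest of the 13318 fitted genes. In WT Treg the stimulated mean was 75.9% of the ex vivo mean (log2 -0.38, SE 0.13; -0.19 on the TPM as deposited, where the groups overlapped, and -0.63 with a filter at 1 TPM), and in cKO Treg it was 39.8% (log2 -1.22, SE 0.13). The difference between these stimulation effects, cKO minus WT, was -0.84 (log2, SE 0.19) and lay between -1.34 and -0.75 over the 19 alternatives, lowest on the TPM as deposited. The lowest library of St8sia6 held 320 reads and the highest 2831. At 6.15 ± 0.199 TPM as deposited in cKO stimulated, St8sia6 was still above the median of 1555 olfactory and vomeronasal receptor genes, which serve as genes silent in T cells and stood at 1.05 TPM in that group. These values chose the gene, so no test is given for them.

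St8sia1 encodes the ganglioside GD3 synthase, which adds the second sialic acid to a glycolipid. Ex vivo its scaled TPM were 18.8, 15.0 and 15.3 in WT and 16.9, 14.7 and 15.9 in cKO. The groups overlapped, and the log2 change of -0.04 had a 95% interval of -0.26 to 0.18 (adjusted p = 0.907). After stimulation they were 13.3, 15.3 and 14.3 in WT and 8.99, 10.4 and 9.76 in cKO, with every cKO library under every WT library. St8sia1 fell by 0.51 in this comparison (log2, SE 0.10, adjusted p = 0.0128), to 68.0% of the WT mean. Stimulation in cKO lowered it by a log2 change of -0.65 (SE 0.10, adjusted p = 0.000543), and in WT its change was -0.18 (95% interval -0.40 to 0.05, adjusted p = 0.206). The genotype call after stimulation was lost without WT stimulated 2 (adjusted p = 0.0715) and without cKO stimulated 1 (adjusted p = 0.0585), and with genes under 5 TPM in the fit (adjusted p = 0.218 with a filter at 1 TPM and 0.211 with no filter).

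St8sia4 encodes a polysialyltransferase, which builds long chains of sialic acid on a few carrier proteins. Ex vivo it stood at 27.6, 29.2 and 33.1 scaled TPM in WT and 26.2, 27.0 and 31.7 in cKO Treg, and after stimulation at 22.4, 23.5 and 21.1 in WT and 22.7, 25.9 and 21.5 in cKO Treg. The genotypes overlapped in both conditions. The genotype change was -0.08 ex vivo (log2, 95% interval -0.31 to 0.15, adjusted p = 0.776) and 0.06 after stimulation (95% interval -0.17 to 0.29, adjusted p = 0.7501). Both signs turned on the TPM as deposited, to 0.15 ex vivo and -0.22 after stimulation. Stimulation lowered St8sia4 in WT, with every stimulated library under every ex vivo library (log2 -0.41, SE 0.10, adjusted p = 0.0115), and this call was lost on the TPM as deposited (adjusted p = 0.474) and with a filter at 1 TPM (adjusted p = 0.106) or no filter (adjusted p = 0.117). In cKO the stimulation change was -0.27 (log2, 95% interval -0.49 to -0.04, adjusted p = 0.0570). It passed the threshold without cKO stimulated 2 (adjusted p = 0.0206), with a filter at 1 TPM (adjusted p = 0.0245), with no filter (adjusted p = 0.0241), on the TPM as deposited (adjusted p = 0.0321) and in voom on recovered reads (adjusted p = 0.0405).

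St6gal1 encodes the enzyme that caps galactose of N-linked glycans, and its product is a ligand of the lectin CD22. Ex vivo its scaled TPM were 61.4, 55.5 and 62.7 in WT and 55.5, 47.0 and 55.6 in cKO, with a log2 change of -0.18 (95% interval -0.39 to 0.02, adjusted p = 0.348) that turned to 0.05 on the TPM as deposited. After stimulation they were 36.5, 43.7 and 41.0 in WT and 24.1, 24.2 and 24.7 in cKO. The stimulated groups did not overlap, and St6gal1 fell by 0.70 (log2, SE 0.09, adjusted p = 0.00144), to 60.2% of the WT mean. Each of the 12 fits that left out 1 library called it (highest adjusted p = 0.0105), and the fits with a filter at 1 TPM and with no filter did not (adjusted p = 0.121 and 0.106). Stimulation lowered St6gal1 in WT (log2 -0.56, SE 0.09, adjusted p = 0.00103) and in cKO (log2 -1.08, SE 0.09, adjusted p = 1.05e-05). The call in WT was lost on the TPM as deposited (adjusted p = 0.217) and narrowly with a filter at 1 TPM (adjusted p = 0.0514) or no filter (adjusted p = 0.0548).

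St3gal1 encodes the enzyme that caps the core galactose of O-linked glycans, a step known to vary with T cell activation. Ex vivo it stood at 38.6, 38.5 and 42.5 scaled TPM in WT and 41.6, 41.0 and 47.7 in cKO Treg, and after stimulation at 22.4, 19.6 and 21.5 in WT and 21.7, 23.0 and 14.4 in cKO Treg. Stimulated and ex vivo libraries did not overlap in either genotype, and genotypes overlapped in both conditions. Stimulation lowered St3gal1 in WT by a log2 change of -0.88 (SE 0.15, adjusted p = 0.00104) and in cKO by -1.13 (SE 0.15, adjusted p = 0.000176), and the call in WT was lost on the TPM as deposited (adjusted p = 0.0821). The genotype change was 0.12 ex vivo (log2, 95% interval -0.20 to 0.44, adjusted p = 0.764) and -0.12 after stimulation (95% interval -0.45 to 0.20, adjusted p = 0.641). The latter turned to 0.11 without cKO stimulated 3, the lowest of its group.

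St3gal2 and St3gal4 were not called in any of the 5 comparisons. St3gal2, which caps O-linked glycans and gangliosides, stood at 13.4 to 16.4 scaled TPM in WT Treg ex vivo and 12.5 to 13.5 after their stimulation, against 14.5 to 16.7 and 14.2 to 17.4 in cKO Treg. It was the only fitted member whose stimulated libraries were all higher in cKO than in WT, with a log2 change of 0.29 (95% interval 0.07 to 0.51, unadjusted p = 0.0153, adjusted p = 0.114), and 12.8% of all fitted genes did not overlap in this direction. On the TPM as deposited the groups overlapped (log2 0.016, adjusted p = 0.966), and with a filter at 1 TPM the change was 0.0015 (adjusted p = 0.998). St3gal4, which caps N-linked glycans and takes part in making selectin ligands, stood at 17.8 to 24.8 scaled TPM in WT Treg ex vivo and 15.9 to 20.8 after their stimulation, against 13.4 to 21.2 and 14.6 to 17.5 in cKO Treg. Its groups overlapped in all 4 pairwise comparisons, and its genotype changes were -0.32 ex vivo (log2, 95% interval -0.69 to 0.06, adjusted p = 0.380) and -0.19 after stimulation (95% interval -0.56 to 0.19, adjusted p = 0.529). St3gal4 had 155 to 631 reads and the widest intervals of the 7 fitted members in each comparison.

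St3gal6, which also takes part in making selectin ligands, did not reach 5 TPM in any group and was not fitted. Its scaled TPM were 1.76, 3.35 and 2.97 in WT and 1.95, 2.03 and 1.80 in cKO Treg ex vivo, and 2.96, 2.65 and 2.30 in WT and 2.17, 1.98 and 2.61 in cKO Treg after stimulation. The groups overlapped in both genotype comparisons. The log2 differences between genotypes were -0.31 ex vivo (exact two-sided permutation p = 0.4) and -0.16 after stimulation (exact two-sided permutation p = 0.2), in a design whose smallest possible p is 0.1. With 83 to 226 reads in a library its deposited group means, 1.99 to 2.86 TPM, were above the upper quartile of the silent receptor genes (0.982 to 1.41 TPM over the groups).

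Side by side, the genotype comparison after stimulation called 2 of the 6 members tested there, St8sia1 and St6gal1, both lower, where 6.93% of all genes were called, 3.30% higher and 3.63% lower. Stimulation called 3 of 6 in WT (St8sia4, St3gal1 and St6gal1) and 3 of 6 in cKO (St8sia1, St3gal1 and St6gal1), all lower. Of all genes, 32.0% were called in WT, 12.7% higher and 19.3% lower, and 43.8% in cKO, 17.3% higher and 26.5% lower. Groups that did not overlap were lower for 18.0% of all genes between genotypes after stimulation, and higher or lower for 21.1% and 26.3% with stimulation in WT and 22.8% and 30.7% in cKO. The comparisons share their libraries, so these calls are not independent of each other. The median log2 change of all fitted genes lay between -0.04 and 0.00 in the 5 comparisons. For the difference of the stimulation effects, cKO minus WT, limma called 0 of the 6 tested members, and 1.10% of all genes were called, 0.451% higher and 0.653% lower. At an unadjusted p under 0.05 there were 2, St6gal1 (log2 -0.52, SE 0.13, adjusted p = 0.0923) and St8sia1 (log2 -0.47, SE 0.14, adjusted p = 0.151), and voom on recovered reads also called 0. A larger stimulation effect in cKO than in WT was therefore not shown for any tested member.

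**Figure D2:**
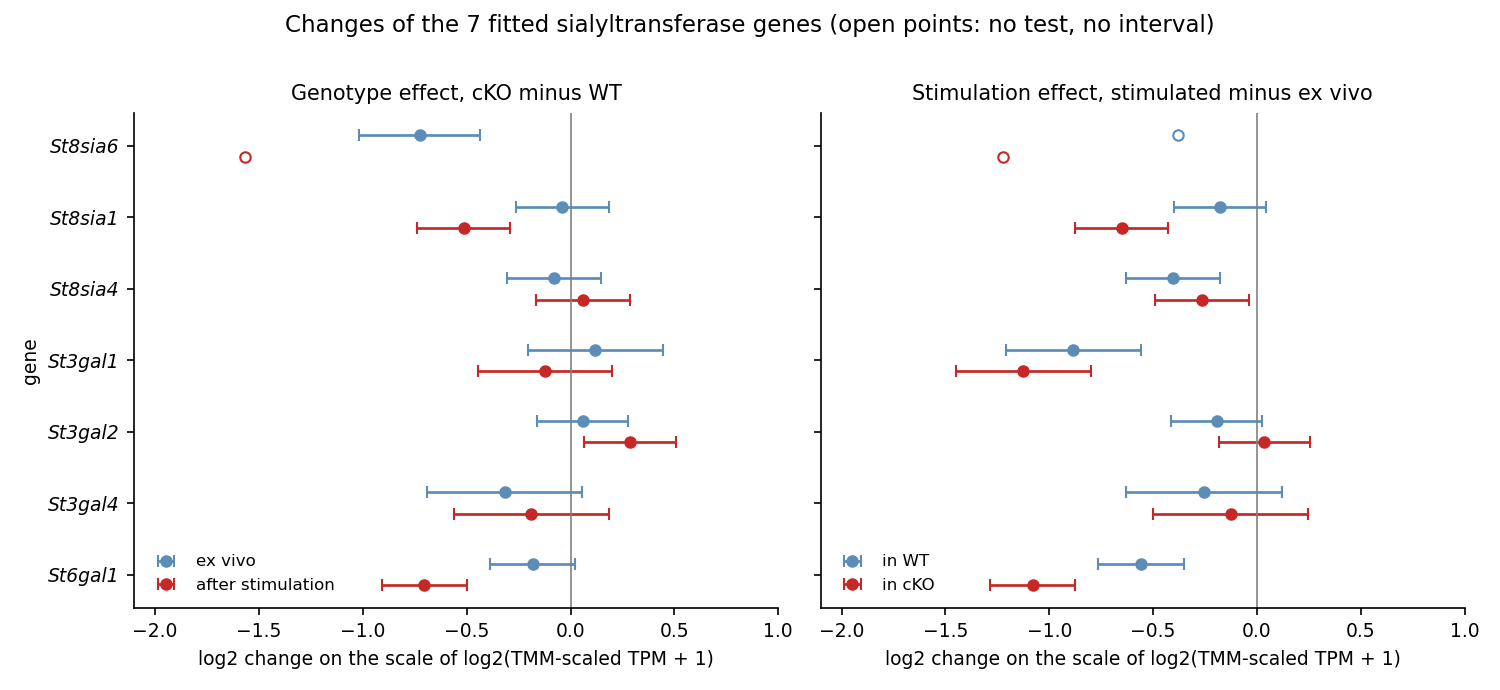
Log2 change of the 7 fitted members (horizontal axis, 0 marked), as filled points with 95% intervals where tested and as open points without an interval for the untested values of St8sia6, at left cKO minus WT ex vivo and after stimulation, at right stimulated minus ex vivo in WT and in cKO. St8sia6 lies at -0.73 ex vivo and -1.57 after stimulation, and the intervals of St8sia4 and St3gal1 for the genotype effect include 0 in both conditions.

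The pattern of St8sia6 over the 12 libraries was compared with that of every fitted gene by Pearson's r on log2(scaled TPM + 1). These r are a description, since the 12 points are 4 groups of 3 libraries that share their scaling. Among the members r with St8sia6 was 0.90 for St8sia1, 0.90 for St6gal1, 0.63 for St3gal4, 0.52 for St3gal1, 0.43 for St8sia4 and -0.43 for St3gal2. The highest r between 2 members was 0.95, for St8sia1 and St6gal1, which stood at their lowest in the same 3 cKO stimulated libraries. Among the 5 genes of highest r were Pnpla7 (r = 0.98), a lysophospholipase gene, Lef1 (0.98), a transcription factor of the Wnt pathway, Fam134b (0.98), an endoplasmic reticulum receptor of autophagy, and A430078G23Rik (0.98). Lef1 stood at 57.0 ± 13.0 TPM as deposited in WT and 40.7 ± 3.18 in cKO Treg ex vivo, and at 48.6 ± 6.46 and 17.8 ± 2.57 after stimulation (SD, n = 3). Lef1 is high in T cells that have not become effectors, and its part in the values of St8sia6 was not tested. Of the 5 genes, 3 to 5 stayed among the 5 highest when 1 library was left out, with 3 without WT ex vivo 3, and 3 stayed on the TPM as deposited.

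**Figure D3:**
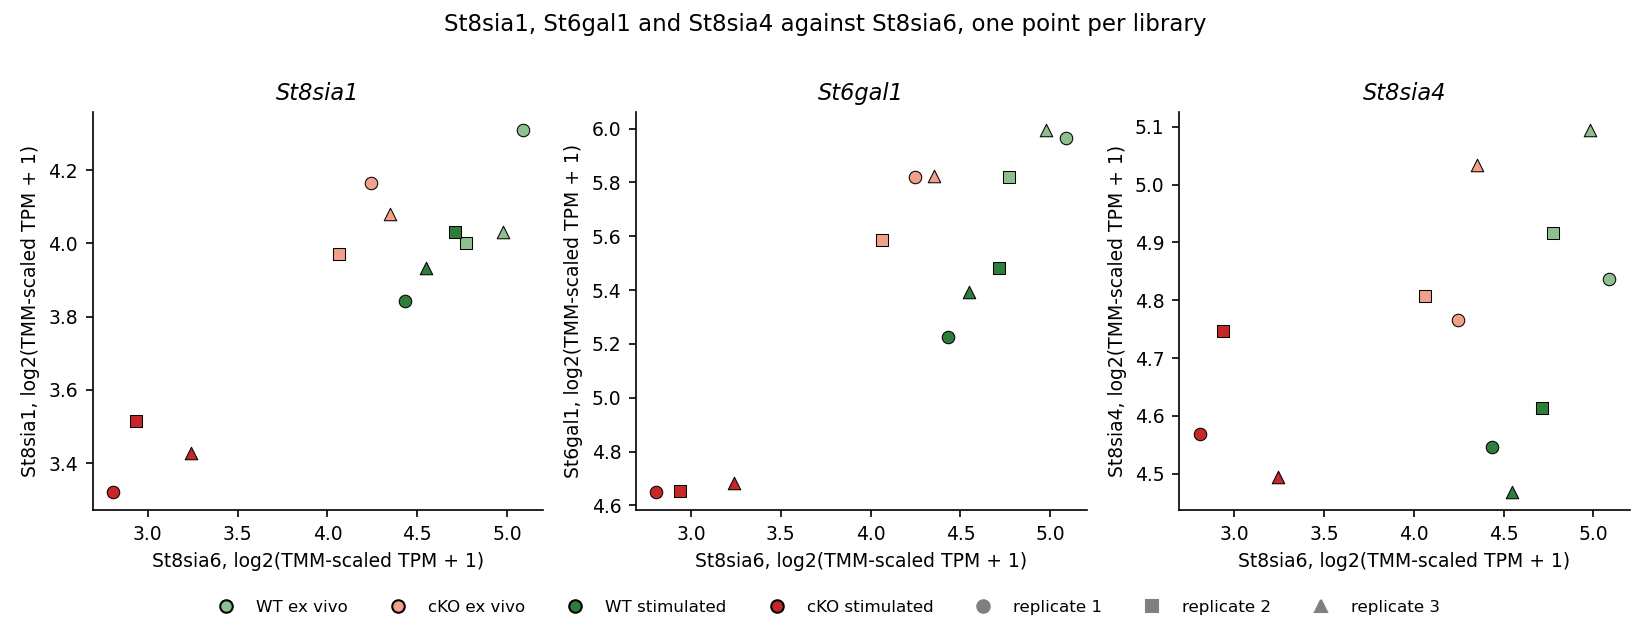
Level of St8sia1, St6gal1 and St8sia4 (vertical axes) against that of St8sia6 (horizontal axes), all as log2(scaled TPM + 1), with 1 point per library, colour for the group and symbol for the replicate number. The 3 cKO stimulated libraries are lowest for St8sia1 and St6gal1 and overlap the WT stimulated libraries for St8sia4.

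The members act on substrates that other genes supply, and these genes were described from lists. Of 12 further sialyltransferase genes, 4 were fitted (St3gal3, St6galnac3, St6galnac4 and St6galnac6), and limma called 0 of 4 in both genotype comparisons, with 0 at an unadjusted p under 0.05 and 0 in voom. Of 6 genes that make, activate and carry sialic acid, 5 were fitted. Between genotypes after stimulation 1 of them was called lower and 0 higher, where 3.63% of all genes were called lower and 3.30% higher. Cmah, whose enzyme turns one form of activated sialic acid into another, stood at 21.3, 24.4 and 21.8 scaled TPM in WT stimulated and 11.1, 12.6 and 12.3 in cKO stimulated. It fell by 0.85 (log2, SE 0.12, adjusted p = 0.00206) in cKO against WT after stimulation, with a list median of -0.25 against -0.03 for all genes. The call held in all 12 fits that left out 1 library and was lost with a filter at 1 TPM (adjusted p = 0.102).

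Of 12 genes that build the sugar chains to be capped, 9 were fitted. Ex vivo limma called 0 of them, with 2 at an unadjusted p under 0.05 and 1 in voom, and after stimulation 4 were lower in cKO and 0 higher, where 3.63% of all genes were called lower and 3.30% higher, with a list median of -0.29 against -0.03 for all genes. Voom called a further gene, B4galt5, which was higher in cKO (log2 0.40, SE 0.13, limma adjusted p = 0.0886). Ugcg encodes the enzyme that starts glycolipid synthesis. It stood at 42.4, 64.4 and 45.0 scaled TPM in WT stimulated and 20.7, 25.3 and 21.7 in cKO stimulated, and fell by 1.11 (log2, SE 0.16, adjusted p = 0.00263). B4galnt1 encodes the enzyme that extends gangliosides and was the most abundant gene of these lists that was called between genotypes. It stood at 185, 202 and 196 scaled TPM in WT stimulated and 95.9, 107 and 91.7 in cKO stimulated, and fell by 0.98 (log2, SE 0.11, adjusted p = 0.000494). In the ex vivo libraries it stood at 252, 202 and 246 in WT and 217, 184 and 196 in cKO, groups that overlapped. Both calls held in all 12 fits that left out 1 library and were lost with a filter at 1 TPM (adjusted p = 0.0797 for Ugcg and 0.0842 for B4galnt1).

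The other 2 calls of that list were weaker. Mgat5, whose enzyme adds a branch to N-linked glycans, stood at 43.3, 47.0 and 49.3 scaled TPM in WT stimulated and 28.3, 36.8 and 27.6 in cKO stimulated, and fell by 0.59 (log2, SE 0.15, adjusted p = 0.0361). Its call was lost in 6 of the 12 fits that left out 1 library, those without WT stimulated 1, 2 or 3, cKO stimulated 1 or 3, or cKO ex vivo 3 (adjusted p of up to 0.133), and with a filter at 1 TPM (adjusted p = 0.261). C1galt1, whose enzyme makes the core O-linked structure that St3gal1 caps, stood at 19.8, 18.4 and 19.9 scaled TPM in WT stimulated and 15.1, 14.8 and 12.3 in cKO stimulated. It fell by 0.44 (log2, SE 0.11, adjusted p = 0.0358), and its call was lost in 7 of 12 such fits, those without WT stimulated 1, 2 or 3, cKO stimulated 1 or 3, WT ex vivo 3 or cKO ex vivo 3 (adjusted p of up to 0.155), and with a filter at 1 TPM (adjusted p = 0.288).

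Of 14 genes of sialic acid lectins and sialylated carriers, 13 were listed and 5 were fitted, namely Cd22, Selplg, Spn, Nrp2 and Ccr7. Between genotypes ex vivo limma called 0 of the 5, with 3 at an unadjusted p under 0.05 (Ccr7, Cd22 and Selplg) and 1, Cd22, in voom. After stimulation 1 was lower in cKO, where 3.63% of all genes were called lower. Spn, the sialoglycoprotein CD43, stood at 94.7, 84.9 and 99.3 scaled TPM in WT stimulated and 67.9, 77.6 and 62.9 in cKO stimulated, and fell by 0.42 (log2, SE 0.09, adjusted p = 0.0230). This call was lost without WT stimulated 1 or 3 and without cKO stimulated 1 or 3 (adjusted p of up to 0.10005), and with a filter at 1 TPM (adjusted p = 0.275). Ccr7, a homing receptor that St8sia4 modifies in other cells, changed by -0.83 (log2, 95% interval -1.33 to -0.32, adjusted p = 0.0554), and voom on recovered reads called it. Siglece, the gene of Siglec-E, was at 1.94 to 5.07 TPM as deposited and was not fitted.

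Of 7 genes that remove or modify sialic acid, 4 were fitted and 2 were called ex vivo, in opposite directions, where 3.62% of all genes were called higher and 1.67% lower. Neu3, a sialidase of gangliosides, stood at 8.16, 11.01 and 9.30 scaled TPM in WT ex vivo and 15.6, 12.7 and 15.5 in cKO ex vivo, and rose by 0.58 (log2, SE 0.11, adjusted p = 0.0121). In the stimulated groups it stood at 15.8, 14.6 and 15.4 in WT and 14.6, 15.6 and 15.2 in cKO, which overlapped. The call was lost without cKO ex vivo 1 (adjusted p = 0.0569) or 3 (adjusted p = 0.0609), and with a filter at 1 TPM (adjusted p = 0.467). Casd1, which adds an acetyl group to sialic acid, stood at 12.6, 13.4 and 12.2 scaled TPM in WT ex vivo and 9.99, 9.48 and 10.8 in cKO ex vivo. It fell by 0.31 (log2, SE 0.08, adjusted p = 0.0439), a call that 11 of the 12 fits with 1 library left out did not make (adjusted p of up to 0.141), the exception being the fit without cKO stimulated 3.

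**Figure D4:**
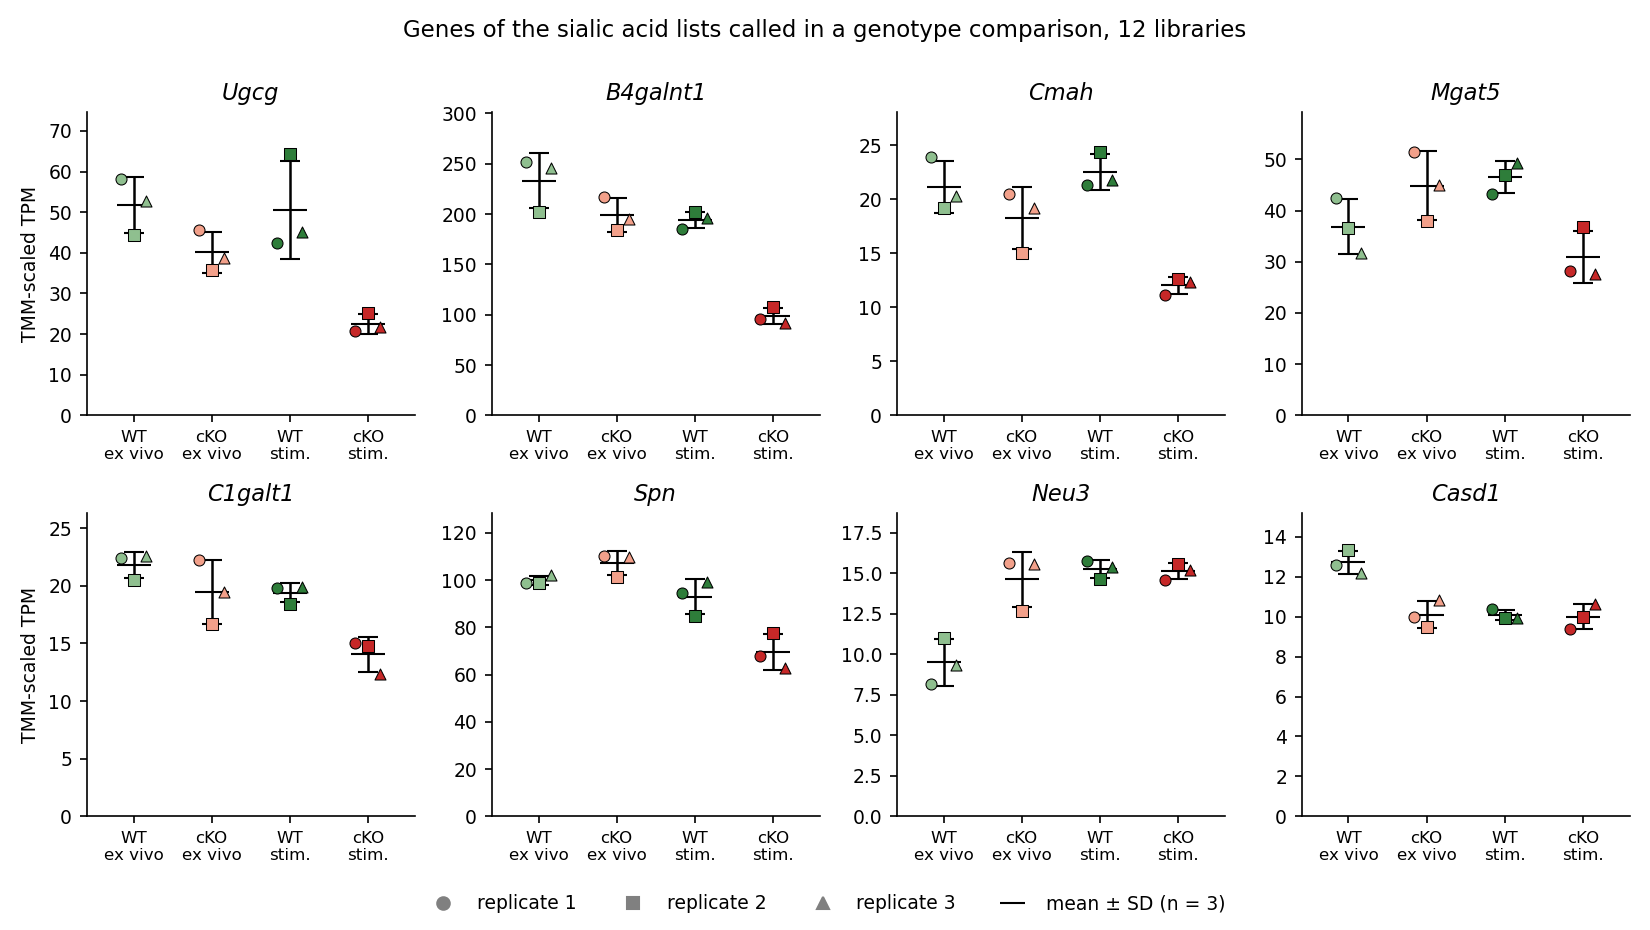
Levels in scaled TPM (vertical axis, from 0) of the 8 genes of the sialic acid lists that were called in a genotype comparison, in the 12 libraries by group. Points are libraries and bars are the mean ± SD of 3. Ugcg, B4galnt1, Cmah, Mgat5, C1galt1 and Spn are lowest in cKO stimulated, and Neu3 is lowest in WT ex vivo.

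Markers of other cells were read beside these results, since B cells carry much ST6GAL1 and CD22. Cd22 stood at 3.91, 5.34 and 3.94 scaled TPM in WT and 6.23, 6.75 and 7.80 in cKO Treg ex vivo. These groups did not overlap, as was so for 11.6% of all fitted genes in this direction. After stimulation Cd22 stood at 4.56, 3.91 and 3.26 in WT and 5.53, 3.72 and 4.91 in cKO Treg. Only its cKO ex vivo mean reached 5 TPM, so these values are a description. Of the B cell markers, Cd79b and Ighm reached 5 TPM in at least 1 group, while Ms4a1, Cd79a and Pax5 had deposited group means of 1.07 to 3.93 TPM. Ighm stood at 300.2 ± 30.3 scaled TPM in WT and 364 ± 42.5 in cKO Treg ex vivo, and at 96.1 ± 8.43 and 91.03 ± 5.36 after stimulation (SD, n = 3). With stimulation, as St6gal1 did, Ighm fell in WT (log2 -1.63, SE 0.11, adjusted p = 3.99e-06) and in cKO (log2 -1.98, SE 0.11, adjusted p = 1.13e-06), and Cd79b fell in WT (log2 -0.68, SE 0.23, adjusted p = 0.0406), a call lost in 9 of the 12 fits that left out 1 library (adjusted p of up to 0.149, without WT ex vivo 3). Cd79b stood at 4.72 to 7.65 TPM in WT and 11.6 to 12.1 in cKO Treg ex vivo, and at 2.72 to 6.65 and 5.81 to 9.11 after stimulation. Cd79b was higher in cKO stimulated than in WT stimulated (log2 0.96, SE 0.23, adjusted p = 0.0283), the comparison in which St6gal1 fell. The part of B cell RNA in the levels of St6gal1 was not tested. The Cd79b call was lost in 4 of the 12 fits that left out 1 library (adjusted p of up to 0.111, without WT stimulated 2). Of 6 myeloid and 5 erythroid markers none reached 5 TPM in any group, and of 6 markers of CD8 T cells and natural killer cells only Cd8b1 did.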

How the data were processed

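RNA of 12 Treg libraries from individual mice was sequenced as rRNA-depleted, stranded libraries. Per the labels and the study's methods, the authors aligned reads with STAR 2.6.0c to mm9, counted them over exons by strand with HTSeq 0.6.1 and removed rRNA genes. The deposited signal values are TPM, stacked in 1 column for all libraries, and the deposited log2 values are the log2 of TPM plus the value of 1 read. A table of the authors' own comparisons holds fold changes and p-values and was not used. Whole reads could be recovered from the TPM (99.9977% of values within 0.01 of a whole read) and served 1 alternative.

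TPM were divided by TMM factors (30% of M and 5% of A values trimmed). Genes that reached 5 TPM or more as the mean of some group (13318 of 36222) were fitted with limma 3.58.1 (R 4.3.3), with trend, on log2(scaled TPM + 1) over all 12 libraries without covariates. The 5 comparisons were genotype ex vivo, genotype after stimulation, stimulation in WT, stimulation in cKO, and the difference of the stimulation effects. Tests were two-sided, and a gene was called at a Benjamini-Hochberg adjusted p under 0.05 within a comparison. Tables were handled with Python 3.11.15. St3gal6, under the filter, was tested by an exact permutation test. On simulated data for the genotype effect after stimulation (12378 genes), 47.3% of 93 genes changed 2-fold and 92.6% of 94 changed 4-fold were recovered, and 22 calls (14.4%) were false, or 2 calls (1.8%) among genes with at least 100 mean reads. The simulation used a single dispersion for all genes and, apart from the changed genes, a mean profile shared by all libraries. These rates need not hold for the real libraries. Libraries held 8208659 to 20247649 reads, and replicates differed by more than counting error (chi-square per degree of freedom of 4.51 to 48.2).

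The members, the gene lists and the filter at 5 TPM were chosen with earlier results of these data known. In those results most genes between 1 and 5 TPM lay in the range of the silent receptor genes and shifted the scaling. Named genes are the 8 members, list genes called in a genotype comparison, the 5 genes most like St8sia6 (1 of them is not reported here), Ikzf1 and the stimulation controls as a range. The alternatives were a filter at 1 TPM, no filter, a pseudocount of 0.25, TPM as deposited, median-of-ratios scaling, a replicate block, voom on recovered reads, and leaving out each library. Libraries of a group came from separate mice.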

Additional observations from a re-analysis of the deposited data

Results flagged for a closer look

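The genotype effect on B4galnt1, the ganglioside-extending enzyme, differed between stimulated and ex vivo Treg, by a test of the difference itself. The log2 difference, stimulated minus ex vivo, was -0.75 (SE 0.15, limma adjusted p = 0.0468). Of the 12 fits that each left out 1 library, 3 made this call (adjusted p of up to 0.137), and the fit with a filter at 1 TPM did not (adjusted p = 0.624).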

How the results depend on the processing

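Median-of-ratios scaling and a pseudocount of 0.25 kept every count of called members and moved no count of called genes beyond 1.5 times. Lowering the filter on low values changed most. With a filter at 1 TPM, 57 genes were called ex vivo, 68 between genotypes after stimulation, 1838 for stimulation in WT and 0 for the difference of stimulation effects, and with no filter 56, 68, 1694 and 0, against 704, 923, 4262 and 147. Called members were then 0 ex vivo, 0 between genotypes after stimulation and 1 for stimulation in WT under both filters. For stimulation in cKO, St8sia1, St3gal1 and St6gal1 were called in all 19 alternatives, those with a lower filter included. On the TPM as deposited the gene counts were 273, 306, 1943 and 67, and called members 0 ex vivo and 0 for stimulation in WT. Genes called higher were 260 of 273 there against 482 of 704 ex vivo, 69 of 306 against 439 of 923 between genotypes after stimulation, and 1175 of 1943 against 1688 of 4262 for stimulation in WT. The median of all genes moved to 0.21, -0.30, 0.18, -0.31 and -0.52 (log2) in the 5 comparisons on the TPM as deposited, and to -0.02, -0.31, -0.23, -0.50 and -0.30 with a filter at 1 TPM. Voom on recovered reads called 1203 genes ex vivo and 395 for the difference of stimulation effects. The cause of these shifts was not tested.

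Leaving out 1 library gave 324 to 740 genes ex vivo, 398 to 1054 between genotypes after stimulation, 3256 to 4387 for stimulation in WT, 4098 to 5992 for stimulation in cKO and 50 to 203 for the difference, with 1, 1 to 2, 3, 3 to 4 and 0 members called. Fewest ex vivo genes were called without cKO ex vivo 3.

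Signs turned for small log2 changes. On the TPM as deposited, St8sia1, St8sia4 and St6gal1 ex vivo became 0.18, 0.15 and 0.052, and St8sia1 for stimulation in WT 0.0079. With a filter at 1 TPM, no filter and the TPM as deposited, St8sia4 after stimulation became -0.23, -0.23 and -0.22, St3gal2 for stimulation in cKO -0.48, -0.47 and -0.27, and the difference of stimulation effects -0.14, -0.15 and -0.37 for St8sia4, -0.041, -0.057 and -0.27 for St3gal2 and -0.14, -0.16 and -0.37 for St3gal4. Leaving out 1 library moved St8sia1 ex vivo over -0.097 to 0.058 (highest without WT ex vivo 1), St3gal2 ex vivo over -0.021 to 0.11 (lowest without WT ex vivo 2), and, between genotypes after stimulation, St8sia4 over -0.039 to 0.14 (lowest without cKO stimulated 2) and St3gal1 over -0.27 to 0.11 (highest without cKO stimulated 3). For stimulation in cKO it moved St3gal2 over -0.057 to 0.16 (lowest without cKO stimulated 2) and St3gal4 over -0.30 to 0.011 (highest without cKO ex vivo 1), and the difference for St3gal4 over -0.041 to 0.27 (lowest without cKO ex vivo 2).

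The labels give no pairing by replicate number, and the correlations of same-numbered libraries ran from -0.21 to 0.26 over all pairs of groups. Between WT ex vivo and cKO ex vivo they were 0.149, 0.257 and 0.0781, and each library correlated best with its own number, a hint from the data and not from the design. With the replicate number as a block, 516, 630, 3945, 5457 and 65 genes and 1, 2, 3, 3 and 0 members were called, and the calls of Casd1 ex vivo (adjusted p = 0.0895), Mgat5 (0.0681) and Spn (0.0586) after stimulation, of B4galnt1 for the difference (0.111), and of Nr4a1 for stimulation in WT (0.0599), were not made.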

Other observations

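St8sia5, a further gene of the St8sia family, stood at 1.43, 1.73 and 1.37 scaled TPM in WT ex vivo, 1.71, 1.96 and 1.04 in cKO ex vivo, 2.39, 2.14 and 1.99 in WT stimulated and 5.08, 3.85 and 5.27 in cKO stimulated. It was singled out after its values were seen, had 27 to 77 reads in a library, passed no filter at 5 TPM and was not tested.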
